A study of Rattus norvegicus with 6 samples.

Results

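The antioxidant defence genes are the enzymes and regulators that remove superoxide and peroxides from cells and restore oxidised thiols. The set holds 34 genes chosen by name, each read from its brightest probe, out of 13903 genes that could be named on an Agilent array of rat mRNAs and long non-coding RNAs. The array had been hybridised, 1 sample per array, with cyanine 3-labelled total RNA from pancreatic islets, the endocrine cell clusters of the pancreas, and the comparison asks how their RNA levels differ between adult and 10-day-old rats. Islets of adult male rats, 1 rat per sample, gave 3 arrays, and islets of 10-day-old rats (P10), each sample a pool of animals, gave the other 3. The labels used here give neither the strain, nor the age of the adults, nor the sex of the P10 rats, and all samples had been isolated by collagenase digestion, which can leave some tissue other than islet in a preparation. A pool averages its animals, so its spread is not that of single rats.

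Superoxide dismutases turn superoxide into hydrogen peroxide, which catalase, the glutathione peroxidases and the peroxiredoxins then reduce. Glutathione peroxidases draw mainly on glutathione and peroxiredoxins mainly on thioredoxin, and both thiols are returned to their reduced form with NADPH. The transcription factor NRF2 (gene Nfe2l2), held down by KEAP1, switches on many of these genes through a DNA motif called the antioxidant response element, and rodent beta cells are known for low catalase and glutathione peroxidase activity.

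The promoters of the set were searched for the core of that element because the members it is known to serve moved in opposite directions. RefSeq promoter windows of the GRCr8 assembly, 250 bases before to 50 bases after each gene's start, were found for 28 of the 34 genes, with 32 windows in all. The core TGACNNNGC, read on both strands, occurred in 9 of these 32 windows (28.1%), against 4038 of all 33469 windows of that length (12.1%) and 2731 of 21851 windows of protein-coding genes (12.5%). The 9 windows belonged to 9 genes. Nqo1, Srxn1, Hmox1, Gsr, Gclc and Txn1, also members that the element is known to serve, were not among them. That does not show that they lack the element, since 6 genes of the set had no window and bases outside the windows were not searched. Among the 9 genes Gclm, Gpx2 and Sod2 were higher in adult islets, Prdx1, Prdx4, Txnrd1 and Nfe2l2 were lower, and Prdx5 and Hmox2 did not pass the test. Of all probes tested, 21.3% were higher and 31.0% lower, so these calls are no result about genes with the core. The matches run 5′ to 3′ on the strand of the gene, with the core in capitals and up to 10 flanking bases, first the higher genes, then the lower ones, then the 2 others. All but that of Nfe2l2 lie on the opposite strand, so the capitals there read GCNNNGTCA. A match of letters is a description, and binding was not measured.
Gclm: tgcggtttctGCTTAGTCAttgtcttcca
Gpx2: acctggtttcGCTAAGTCAttctgggaat
Sod2: ggcgctgccgGCAGGGTCAgcgcctagct
Prdx1: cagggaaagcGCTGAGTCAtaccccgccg
Prdx4: tttcgtgctcGCTTGGTCAtggaaacgtg
Txnrd1: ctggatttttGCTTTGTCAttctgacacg
Nfe2l2: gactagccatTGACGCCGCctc
Prdx5: cctcctgtggGCAGAGTCAtctgcgggtg
Hmox2: gtcttggaagGCAGTGTCAgcttggccag

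These stretches lie at chr2:213031953-213031981 (Gclm, plus strand), chr6:101230028-101230056 (Gpx2, minus), chr1:50050185-50050213 (Sod2, minus), chr5:135383761-135383789 (Prdx1, plus), chrX:43878742-43878770 (Prdx4, plus), chr7:22755964-22755992 (Txnrd1, minus), chr3:81028950-81028971 (Nfe2l2, minus), chr1:213532010-213532038 (Prdx5, minus) and chr10:11337689-11337717 (Hmox2, minus). The first base of the core stood 172 bases before the gene's start in Gclm, 135 in Prdx1, 95 in Hmox2, 78 in Txnrd1, 35 in Sod2, 13 in Gpx2 and 1 in Prdx5. In Prdx4 and Nfe2l2 it lay after the start, at bases 20 and 39.

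Each level below is the log2 of a probe's processed signal minus the 75th percentile of that array, so it ranks samples for 1 gene and not genes against each other. Per array, 17829 to 18731 of the 24684 probes had a signal well above background, and no spot was saturated. By the median over probes with log2 signal above 9, adult arrays 2 and 3 differed by less than the noise between repeated spots. So did P10 arrays 1 and 2, and each pair was averaged and counted as 1 sample. Single probes can differ more. Means, SDs and limma tests therefore rest on 2 counted samples per stage, and the p-values measure only the spread between them. Adult array 1 stood apart from the other 2 adult arrays, with a correlation of levels of 0.985 and 0.986 against 0.997 between those 2. By the scan dates in the file headers, adult arrays 2 and 3 formed a group of their own. Adult array 1 shared a scan date with the 3 P10 arrays. Slide below means such a scan group, inferred from the dates, and slide 1 is that of adult array 1. The median of all probes tested was -0.23 (adult minus P10) and -0.02 after quantile normalization; subtracting the first turns the sign of 2 antioxidant genes, neither of which passed the test.

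Of the 34 genes 33 were tested, 7 were higher and 10 lower in adult islets, and 16 did not pass (limma, adjusted p under 0.05 over 18362 probes). That is 51.5% of the 33, against 52.3% of all probes tested, of which 21.3% were higher and 31.0% lower, so the share is near the background and is no result about these genes. Their median change was -0.27, beside -0.23 for all probes. Higher by at least 1 log2 unit were Nqo1, Srxn1, Glrx, Gpx3 and Gpx2, and lower by as much were Prdx4, Hmox1, Prdx6, Gsr and Prdx1. These 5 and 5 of 33 stand beside 14.6% and 23.7% of all probes. The adult arrays and the P10 arrays did not overlap on 28 of the 33 genes, 11 of which did not pass the test, beside 77.9% of all probes.

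Without P10 array 3, which leaves 1 counted P10 sample, 2 members were higher and 2 lower, while 8.58% and 13.8% of all probes were. Those 4 were Nqo1, Srxn1, Prdx4 and Hmox1, and the other 13 no longer passed. That test takes its spread from the adult samples alone, and the changes of the 17 genes themselves moved by at most 0.074. Without adult array 1, which leaves 1 counted adult sample and takes the spread from P10 samples alone, 10 members were higher and 14 lower, beside 31.9% and 41.3% of all probes. On slide 1 alone, with adult array 1 against the 3 P10 arrays as separate samples, all 17 kept their direction and passed the test, beside 79.8% of all probes. With quantile normalization 16 of the 17 passed, beside 57.2% of all probes, and Prdx1 did not. Gpx8, Txnrd1, Txnrd2, Gss and Nfe2l2 were called neither with median scaling (limma adjusted p from 0.0793 for Gss to 0.344 for Gpx8) nor with the normexp background correction (from 0.0503 for Txnrd1 to 0.118 for Nfe2l2).

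**Figure D1:**
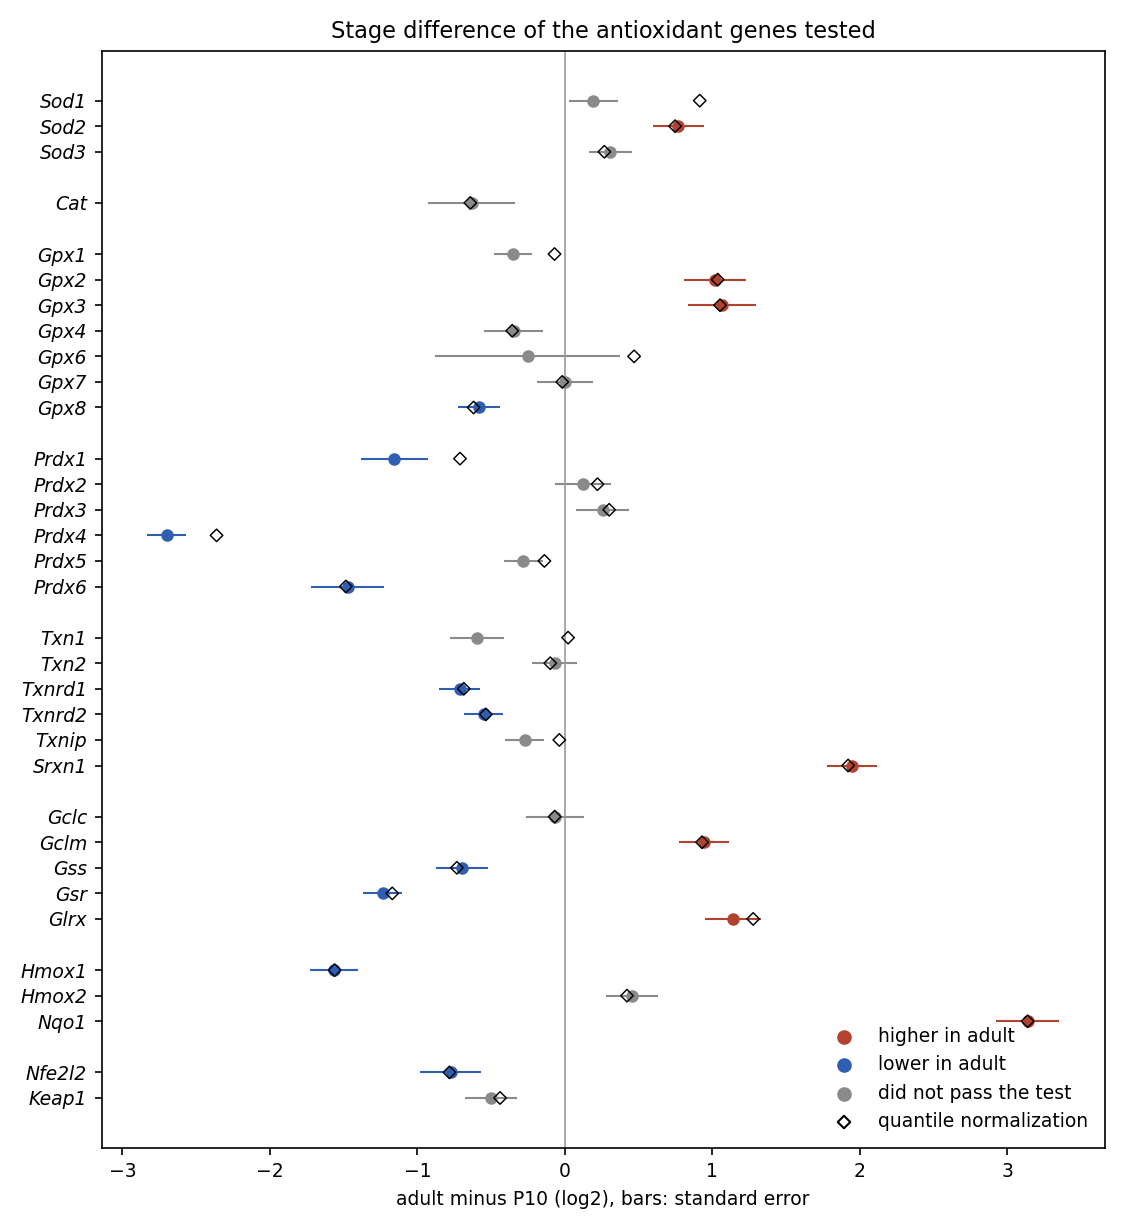
Change of each of the 33 tested antioxidant genes, as adult minus P10 on the log2 scale, grouped by family, with bars for the limma standard error (2 counted samples per stage) and open diamonds for the value after quantile normalization. Nqo1 lies farthest right at 3.14 and Prdx4 farthest left at -2.70. The diamonds of Sod1, Gpx6, Txn1 and Prdx1 lie well to the right of their points.

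**Figure D2:**
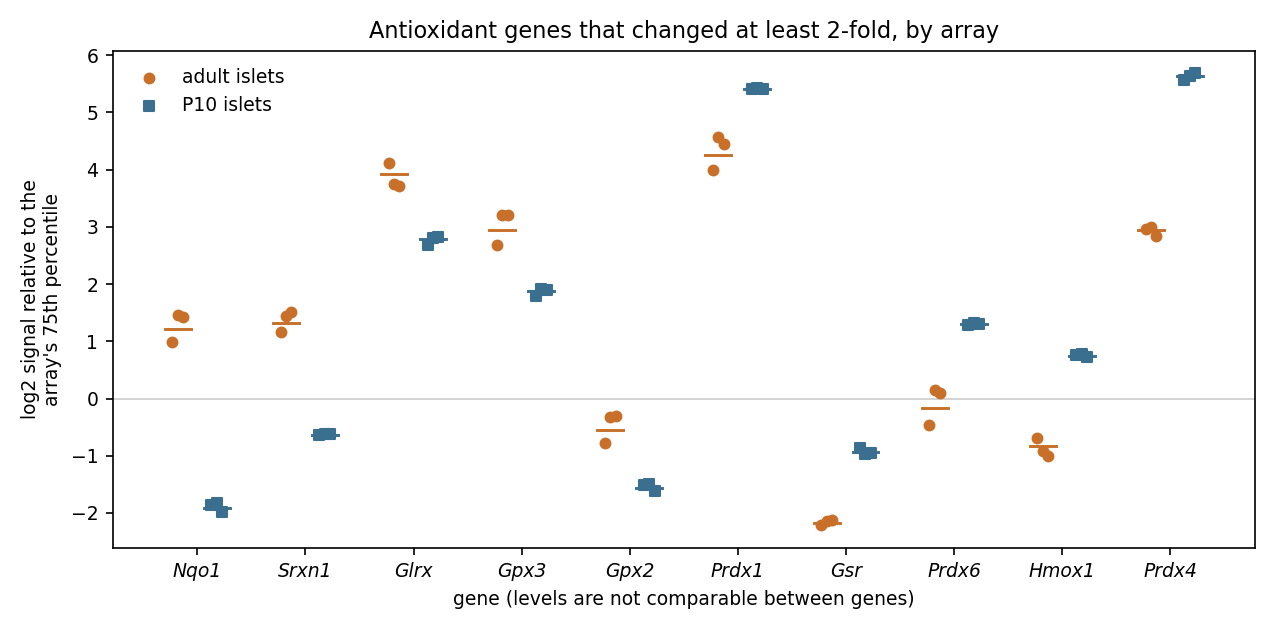
Levels of the 10 antioxidant genes called with a change of at least 1 log2 unit, on the log2 scale with each array's 75th percentile at 0, with 1 point per array, adult islets left of P10 islets, and a line at the mean of the counted samples. For each of the 10 genes all 3 adult arrays lie on one side of all 3 P10 arrays, and the P10 arrays lie closer together than the adult arrays for most of the genes.

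Of the 3 superoxide dismutases 1 was higher in adult islets, beside 21.3% of all probes. The mitochondrial manganese enzyme Sod2 averaged 0.96 ± 0.23 in adult islets and 0.19 ± 0.01 in P10 islets (SD, n = 2 each), a change of 0.77 (SE 0.17, limma adjusted p = 0.0275). The cytosolic copper-zinc enzyme Sod1 read 5.27, 5.58 and 5.54 on adult arrays 1, 2 and 3, against 5.22, 5.26 and 5.21 on P10 arrays 1, 2 and 3. Adult array 1 lay just above the P10 arrays and the other 2 adult arrays higher. The change of 0.19 did not pass (SE 0.16, limma adjusted p = 0.371). With quantile normalization Sod1 was called higher, at 0.91 (limma adjusted p = 0.00694), so its call depends on the scaling. The extracellular enzyme Sod3 stood at 0.31 (limma adjusted p = 0.145).

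Catalase (Cat), the peroxisomal enzyme that splits hydrogen peroxide, did not pass the test. Its levels were 2.10, 1.72 and 1.01 on adult arrays 1, 2 and 3, against 2.35, 2.34 and 2.38 on the P10 arrays. All 3 adult arrays were below all P10 arrays, but they spread over more than 1 log2 unit, and the change was -0.63 (SE 0.29, limma adjusted p = 0.143). Catalase was at -0.64 with quantile normalization (limma adjusted p = 0.111). It was -1.0005 without adult array 1, which leaves 1 counted adult sample, and -0.26 on slide 1, where array 1 is the only adult array, and it passed in both (limma adjusted p = 0.00216 and 0.0226). The size of its change thus depends on which adult arrays are used. Adult arrays 2 and 3, averaged as 1 sample, read 1.72 and 1.01, and the test does not see that gap.

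Among the glutathione peroxidases 2 of 7 tested were higher and 1 was lower in adult islets, beside 21.3% and 31.0% of all probes. Gpx3, the secreted plasma enzyme, read 2.68, 3.21 and 3.21 on adult arrays 1, 2 and 3, against 1.79, 1.92 and 1.90 on the P10 arrays. Its change of 1.07 (SE 0.23, limma adjusted p = 0.0248) is 2.09-fold. Gpx2, known as the gastrointestinal form, read -0.77, -0.33 and -0.31 on the adult arrays, against -1.52, -1.49 and -1.62 on the P10 arrays. All adult arrays lay above all P10 arrays for both genes, and Gpx2 changed by 1.02 (SE 0.21, limma adjusted p = 0.0227), or 2.02-fold. Gpx2 missed the threshold with the normexp background correction (0.89, limma adjusted p = 0.0584).

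Gpx8, a membrane enzyme of the endoplasmic reticulum, was the lower member of the family, with 0.33 ± 0.12 in adult islets and 0.91 ± 0.03 in P10 islets (SD, n = 2 each) and a change of -0.58 (SE 0.14, limma adjusted p = 0.0342). Gpx1, the main cytosolic enzyme, read 4.04, 4.02 and 3.90 on adult arrays 1, 2 and 3, against 4.34, 4.35 and 4.36 on the P10 arrays. The adult arrays were all lower by a small step, and the change of -0.35 did not pass (SE 0.13, limma adjusted p = 0.0905). With quantile normalization Gpx1 stood at -0.07. Gpx4, which reduces lipid peroxides in membranes, was read by a pair of probes for different transcripts that gave -0.35 and -0.28 (limma adjusted p = 0.205 and 0.276).

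Gpx7, also an enzyme of the endoplasmic reticulum, stood at 0.00 (limma adjusted p = 0.994), with overlapping arrays. Gpx6, known from the olfactory epithelium, stood at -0.25 with the widest error of the set (SE 0.63, limma adjusted p = 0.752), and its sign turned to 0.47 with quantile normalization. Gpx5, known from the epididymis, was well above background on 0 of 3 adult arrays and 1 of 3 P10 arrays and was not tested.

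Of the 6 peroxiredoxins 3 were lower in adult islets and the other 3 did not pass the test. Prdx4, the peroxiredoxin of the endoplasmic reticulum, read 2.96, 2.99 and 2.85 on adult arrays 1, 2 and 3, against 5.56, 5.64 and 5.68 on the P10 arrays. The gap between the stages was far wider than the spread within either. Its change of -2.70 (SE 0.13, limma adjusted p = 0.00146) means that P10 signal was 6.50-fold that of adult islets, and 5.79% of all probes tested had a change that low or lower. It was -2.36 with quantile normalization and -2.66 on slide 1 alone.

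Prdx6, which acts with glutathione and also has phospholipase activity, read -0.47, 0.14 and 0.10 on adult arrays 1, 2 and 3, against 1.29, 1.31 and 1.30 on the P10 arrays. The P10 arrays were nearly equal and adult array 1 was the lowest of the 6. The change was -1.47 (SE 0.25, limma adjusted p = 0.0134). Prdx1, the abundant cytosolic enzyme, read 3.99, 4.58 and 4.45 on the adult arrays, against 5.41, 5.42 and 5.40 on the P10 arrays. Adult array 1 was again the lowest of the 6, and the change was -1.16 (SE 0.23, limma adjusted p = 0.0200). With quantile normalization Prdx1 stood at -0.71 and no longer passed (limma adjusted p = 0.0581).

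The remaining peroxiredoxins did not pass the test. The mitochondrial Prdx3 stood at 0.26 (limma adjusted p = 0.293), Prdx5, found in several compartments, at -0.28 (limma adjusted p = 0.147), and the cytosolic Prdx2 at 0.12 (limma adjusted p = 0.609). All spots of Prdx2 had been flagged on P10 array 1, so P10 arrays 2 and 3 stand alone for it.

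In the thioredoxin system 1 of 6 genes was higher and 2 were lower in adult islets, beside 21.3% and 31.0% of all probes. Sulfiredoxin (Srxn1), which repairs over-oxidised peroxiredoxins, read 1.16, 1.45 and 1.51 on adult arrays 1, 2 and 3, against -0.65, -0.62 and -0.63 on the P10 arrays. All 3 adult arrays lay far above the P10 arrays. Its change of 1.95 (SE 0.17, limma adjusted p = 0.0033) is 3.86-fold, and it was 1.92 with quantile normalization and 1.79 on slide 1 alone. The cytosolic thioredoxin reductase Txnrd1 averaged 2.61 ± 0.10 in adult islets and 3.33 ± 0.05 in P10 islets, with a change of -0.71 (SE 0.14, limma adjusted p = 0.0198). The mitochondrial reductase Txnrd2 averaged -1.15 ± 0.04 in adult islets and -0.60 ± 0.02 in P10 islets (SD, n = 2 each for both genes), with a change of -0.55 (SE 0.13, limma adjusted p = 0.0308).

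Cytosolic thioredoxin itself, Txn1, read 4.72, 5.03 and 5.12 on adult arrays 1, 2 and 3, against 5.51, 5.58 and 5.45 on the P10 arrays. The adult arrays were lower, yet the change of -0.60 missed the threshold (SE 0.18, limma adjusted p = 0.0582), and with quantile normalization its sign turned to 0.02. Mitochondrial thioredoxin Txn2 stood at -0.07 (limma adjusted p = 0.723). Txnip, the thioredoxin-binding protein known in islets as a gene raised by glucose, stood at -0.27 (limma adjusted p = 0.158).

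Genes of glutathione synthesis and recycling split, with 2 of 5 higher and 2 lower in adult islets, beside 21.3% and 31.0% of all probes. Gclm, the modifier subunit of glutamate-cysteine ligase, averaged 0.95 ± 0.21 in adult islets and 0.00 ± 0.06 in P10 islets, a change of 0.94 (SE 0.17, limma adjusted p = 0.0157). The catalytic subunit Gclc stood at -0.07 (limma adjusted p = 0.794), with overlapping arrays. Glutathione synthetase Gss, which adds the last residue, averaged 0.85 ± 0.24 in adult islets and 1.54 ± 0.04 in P10 islets (SD, n = 2 each), a change of -0.70 (SE 0.18, limma adjusted p = 0.0378). Gss missed the threshold without adult array 2 (-0.65, limma adjusted p = 0.0567).

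Glutathione reductase (Gsr), which returns oxidised glutathione to its reduced form, read -2.22, -2.15 and -2.13 on adult arrays 1, 2 and 3, against -0.87, -0.97 and -0.96 on the P10 arrays. The arrays of each stage lay close together and the stages apart. Gsr changed by -1.24 (SE 0.13, limma adjusted p = 0.00478), so P10 signal was 2.36-fold that of adult islets. Glutaredoxin Glrx, which removes glutathione from protein thiols, read 4.12, 3.75 and 3.71 on the adult arrays, against 2.68, 2.80 and 2.82 on the P10 arrays. Adult array 1 was the highest of the 6, and the change was 1.14 (SE 0.19, limma adjusted p = 0.0133), or 2.21-fold.

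The inducible enzymes Nqo1 and Hmox1 moved in opposite directions. The quinone reductase Nqo1 read 0.99, 1.46 and 1.43 on adult arrays 1, 2 and 3, against -1.86, -1.82 and -1.99 on the P10 arrays. Every adult array lay more than 2 log2 units above every P10 array. Its change of 3.14 (SE 0.21, limma adjusted p = 0.00214) is 8.81-fold and stood at the 98.3 percentile of all changes tested. The value was 3.14 with quantile normalization and 2.89 on slide 1 alone.

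Heme oxygenase 1 (Hmox1), which breaks heme down to biliverdin, iron and carbon monoxide, read -0.69, -0.92 and -1.001 on adult arrays 1, 2 and 3, against 0.75, 0.77 and 0.72 on the P10 arrays. All adult arrays lay below all P10 arrays. The change was -1.56 (SE 0.16, limma adjusted p = 0.0045), so P10 signal was 2.96-fold that of adult islets. The constitutive heme oxygenase Hmox2 read 1.46, 1.79 and 1.81 on the adult arrays, against 1.16, 1.21 and 1.17 on the P10 arrays. Its arrays did not overlap either, but the change of 0.45 did not pass (SE 0.18, limma adjusted p = 0.100).

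NRF2 (Nfe2l2) read 2.09, 1.56 and 1.70 on adult arrays 1, 2 and 3, against 2.71, 2.61 and 2.61 on the P10 arrays. All adult arrays were below the P10 arrays, with a change of -0.78 (SE 0.21, limma adjusted p = 0.0427). That call did not hold without adult array 3 (-0.81, limma adjusted p = 0.0515) or with scaling to the median (-0.47, limma adjusted p = 0.248). Its repressor Keap1 stood at -0.50 and did not pass (SE 0.18, limma adjusted p = 0.0788), though it was called lower with quantile normalization, at -0.44 (limma adjusted p = 0.0488).

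Of 9 members taken here as NRF2 targets, a group chosen after the values were seen, 3 were higher (Nqo1, Srxn1, Gclm) and 4 lower (Hmox1, Gsr, Prdx1, Txnrd1). Gclc and Txn1 did not pass, and of all probes 21.3% were higher and 31.0% lower. The split depends on which members are taken, and Gpx2 (higher) and Prdx6 (lower) were not. Grouped by place in the cell, also after the values were seen, 2 of 3 members of the endoplasmic reticulum were lower (Prdx4, Gpx8). Of 4 mitochondrial members Sod2 was higher and Txnrd2 lower, and of 2 secreted members Gpx3 was higher. These groups are descriptions, and no test sets them apart from all probes.

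**Figure D3:**
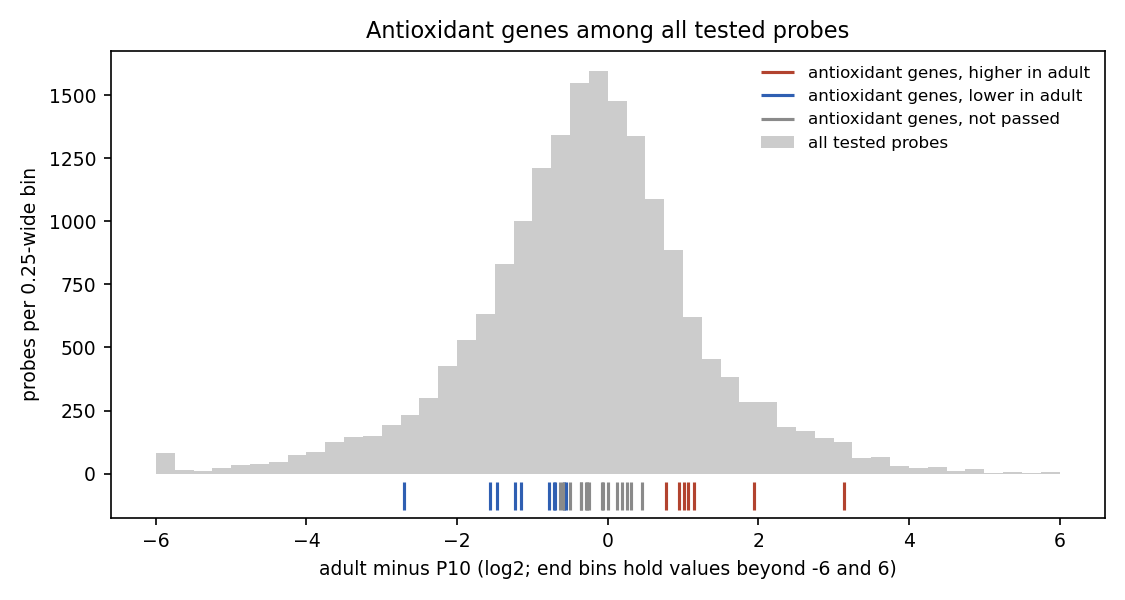
Number of all tested probes at each change, as adult minus P10 in bins of 0.25 log2 units (grey), with 1 tick below for each of the 33 tested antioxidant genes, coloured by call. The ticks run from -2.70 (Prdx4) to 3.14 (Nqo1) and most lie under the main body of the histogram.

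Other genes of redox biology were listed by role. Of 82 such genes 67 had a probe and 63 were tested; 10 were higher and 26 lower in adult islets, which is 57.1% beside the 52.3% of all probes, with a median of -0.45. Without P10 array 3 these counts were 7 and 11. Of 7 tested genes of glutathione supply and breakdown 5 were lower and 1 was higher, beside 31.0% and 21.3% of all probes. The lower ones include the transsulfuration enzymes Cbs and Cth, which make cysteine, at -3.90 (SE 0.16, limma adjusted p = 0.00132) and -3.21 (limma adjusted p = 0.00237). Cbs read -3.80, -3.52 and -3.58 on adult arrays 1, 2 and 3, against 0.10, 0.26 and 0.27 on the P10 arrays. The stages stood far apart. Ggct, of the same list, stood at -2.87, and Chac2, which degrades glutathione, was higher at 1.69 (limma adjusted p = 0.00683 and 0.00463). With the normexp background correction Ggct stood at -1.36 and did not pass (limma adjusted p = 0.0799).

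NADPH supply was mixed, with 1 of 9 genes higher and 3 lower, beside 21.3% and 31.0% of all probes. Malic enzyme Me1 was higher at 1.20, while the mitochondrial isocitrate dehydrogenase Idh2 was lower at -1.31, the mitochondrial NAD kinase Nadk2 at -0.89 and transketolase Tkt at -0.80 (limma adjusted p from 0.00478 for Me1 to 0.0168 for Nadk2). Tkt did not pass with quantile normalization (-0.35, limma adjusted p = 0.0689). Both tested methionine sulfoxide reductases, which repair oxidised methionine, were lower, Msrb1 at -1.63 (limma adjusted p = 0.00618) and Msra at -0.69 (limma adjusted p = 0.0176). Msrb2, of the same list, was not tested, as all its spots had been flagged on P10 array 3. It lay the other way, at 1.70, 2.08 and 2.17 on adult arrays 1, 2 and 3, against 0.82 and 0.88 on P10 arrays 1 and 2. Of 5 genes like glutaredoxin and thioredoxin 2 were lower, Txnrd3 at -0.95 and Txnl1 at -0.47 (limma adjusted p = 0.00885 and 0.0459).

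Partners of NRF2 were called in 3 of 9 cases, beside 52.3% of all probes. The heme-sensing repressor Bach1 and the related Bach2 were lower, at -1.72 and -1.52 (limma adjusted p = 0.0366 and 0.00647). Bach1 missed the threshold without adult array 2 (limma adjusted p = 0.0522). Cul3, the ubiquitin ligase scaffold that KEAP1 uses, was higher at 1.56 (limma adjusted p = 0.00307). With the normexp background correction none of the 3 passed, with Bach1 at -1.23, Bach2 at -0.99 and Cul3 at 0.67 (limma adjusted p = 0.111, 0.0917 and 0.0595). Bach2 missed the threshold with quantile normalization (-0.86, limma adjusted p = 0.06).

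Of 9 genes of metal and heme handling 1 was higher and 5 were lower, beside 21.3% and 31.0% of all probes. With quantile normalization 2 were higher and 3 lower. The 5 lower include Fth1 and Ftl1, taken up below, whose change depends on the scaling. The metallothioneins, which bind zinc and copper and also react with oxidants, gave the widest split among the redox genes. Mt1 read 2.81 and 2.97 on adult arrays 1 and 2, with all its spots flagged on adult array 3, against 7.15, 7.12 and 6.997 on the P10 arrays. Mt2A, flagged on adult array 2, read 1.03 and 1.38 on adult arrays 1 and 3, against 5.37, 5.30 and 5.36 on the P10 arrays. These are changes of -4.18 and -4.14 (limma adjusted p = 0.00132 and 0.00135). Mt3, known from brain, read -0.57, -0.03 and -0.09 on the adult arrays, against -2.56, -2.53 and -2.57 on the P10 arrays, a change of 2.25 (SE 0.22, limma adjusted p = 0.00416). The 3 genes thus went both ways, each with no overlap between stages. Biliverdin reductase Blvrb was lower at -1.29 (limma adjusted p = 0.00623). The ferritin heavy chain Fth1, which stores iron, was lower at -0.67 but higher, at 0.43, with quantile normalization, so no direction is given for it. The light chain Ftl1 was at -1.12, and at -0.0051 with quantile normalization (limma adjusted p = 0.0117 and 0.975).

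Of 11 other protective genes 2 were higher and 3 lower in adult islets, beside 21.3% and 31.0% of all probes. Selenoprotein W (Selenow) was higher at 1.90 and the mitochondrial uncoupling protein Ucp2 at 1.63 (limma adjusted p = 0.00219 and 0.0127). Lower were Sesn3, a sestrin, at -1.02, Sephs2, which makes selenophosphate for selenoproteins, at -0.81, and Aifm2, a coenzyme Q reductase that protects lipids, at -0.45 (limma adjusted p = 0.017, 0.0142 and 0.0497). Aifm2 was not called in several of the other settings tried, quantile normalization among them (-0.35, limma adjusted p = 0.0943).

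Genes of oxidant production went both ways, with 4 of 11 higher and 4 lower, beside 21.3% and 31.0% of all probes. Their median change was 0.75, and with quantile normalization 6 were higher and 4 lower. The 4 higher include Ncf4, taken up below. Monoamine oxidase B (Maob), which releases hydrogen peroxide, was higher at 2.20 (limma adjusted p = 0.00233). Ncf1, a cytosolic subunit of the phagocyte NADPH oxidase, was higher at 1.92 (limma adjusted p = 0.00703), and at 1.04 with the normexp background correction it did not pass (limma adjusted p = 0.0585). Ncf4, another such subunit, was not well above background on any P10 array. It passed the test (limma adjusted p = 0.00435) but stood at -0.041 with the normexp background correction, so no size or direction is given for it. Lower were xanthine dehydrogenase Xdh at -3.21, the NADPH oxidase Nox4 at -1.90 and the membrane subunit Cyba at -1.64 (limma adjusted p = 0.00155, 0.0138 and 0.00358). Nox4 missed the threshold with normexp (-1.52, limma adjusted p = 0.056).

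The samples are bulk islets, in which fewer cells of a type and less RNA per cell cannot be told apart, and several marker lists moved with stage. Levels here are means over a list on an array. The counts of markers called stand beside 21.3% higher and 31.0% lower among all probes. Beta cell markers ran from 4.61 to 4.95 on adult arrays and from 3.23 to 3.33 on P10 arrays. Of 7 beta cell markers 4 were higher, Slc2a2 at 3.18 and Nkx6-1 at 2.92 among them, and 1, Ins1, was lower at -0.93, which was 0.18 with quantile normalization. Of 9 markers of other endocrine cells 6 were higher, Irx2 at 2.12 among them, and 1, Gcg, was lower at -0.80, which was 0.32 with quantile normalization, with list means of 3.86 to 3.93 on adult and 2.71 to 2.74 on P10 arrays. The hormone genes Ins1, Ins2 and Gcg were well above background on all arrays of both stages.

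Acinar markers ran from 4.06 to 4.47 on adult arrays and from 6.34 to 6.41 on P10 arrays, with 8 of 10 lower and the other 2 not passed (4 lower and 1 higher with quantile normalization). Rbpjl stood at -6.12 and Ptf1a at -4.08. Enterocyte markers ran from -5.81 to -5.26 on adult arrays and from 4.01 to 4.07 on P10 arrays, with all 9 tested lower. Fabp1 and Fabp2 were each well above background on 1 of 3 adult arrays and Apoa4 on 0 of 3. Differences of -15.87 and -14.53 for Fabp1 and Fabp2 therefore depend on the background, and were -11.46 and -11.00 with normexp. Of 8 hepatocyte markers 4 were higher, with Apoh at 5.55, and 3 were lower, with Fga at -7.18 and Cps1 at -7.50. Their median change was 0.84, with list means of -1.54 to -1.32 on adult and -0.96 to -0.78 on P10 arrays. Apoh was well above background on 2 of 3 P10 arrays. With normexp Apoh, Fga and Cps1 stood at 3.14, -4.91 and -5.43, so these sizes also depend on the background. Ttr, among the higher ones, is also in the list of other endocrine cells. The genes lower in adult islets, Prdx4, Hmox1, Prdx6, Gsr and Mt1 among them, thus moved together with acinar and enterocyte markers, and the part of those cells in the result was not tested.

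Leukocyte markers ran from 0.05 to 0.21 on adult arrays and from -2.12 to -2.05 on P10 arrays, with all 11 tested higher. Cd79b and Itgam were well above background on 3 adult arrays and on no P10 array, and with the normexp correction they stood at 1.08 and 1.03 (limma adjusted p = 0.0447 and 0.092), so no size is given for them. Nqo1, Srxn1, Glrx and Ncf1 were higher with them, and the part of leukocytes, like that of beta cells, in these results was not tested. Of 8 erythroid markers 3 were higher and 2 lower, with Ahsp at 1.00 and Hba-a1 at -0.78, and list means of -0.93 to -0.76 on adult and -0.97 to -0.93 on P10 arrays. Of 4 stellate and fibroblast markers 1 was higher and 3 were lower, Col1a2 at -1.51 and Col3a1 at -1.42, with list means of 2.98 to 3.08 on adult and 3.80 to 3.90 on P10 arrays. Of 5 endothelial markers 0 were called by limma at an adjusted p under 0.05, and 0 had an unadjusted p under 0.05, with Cdh5 at -1.44 and Tek at 0.79. Without adult array 1 both passed, with Cdh5 at -0.72 and Tek at 1.34 (limma adjusted p = 0.033 and 0.00109), and on slide 1 alone 2 of the 5 were higher and 2 lower. The endothelial list had means of -1.84 to -1.16 on adult and -1.51 to -1.37 on P10 arrays.

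**Figure D4:**
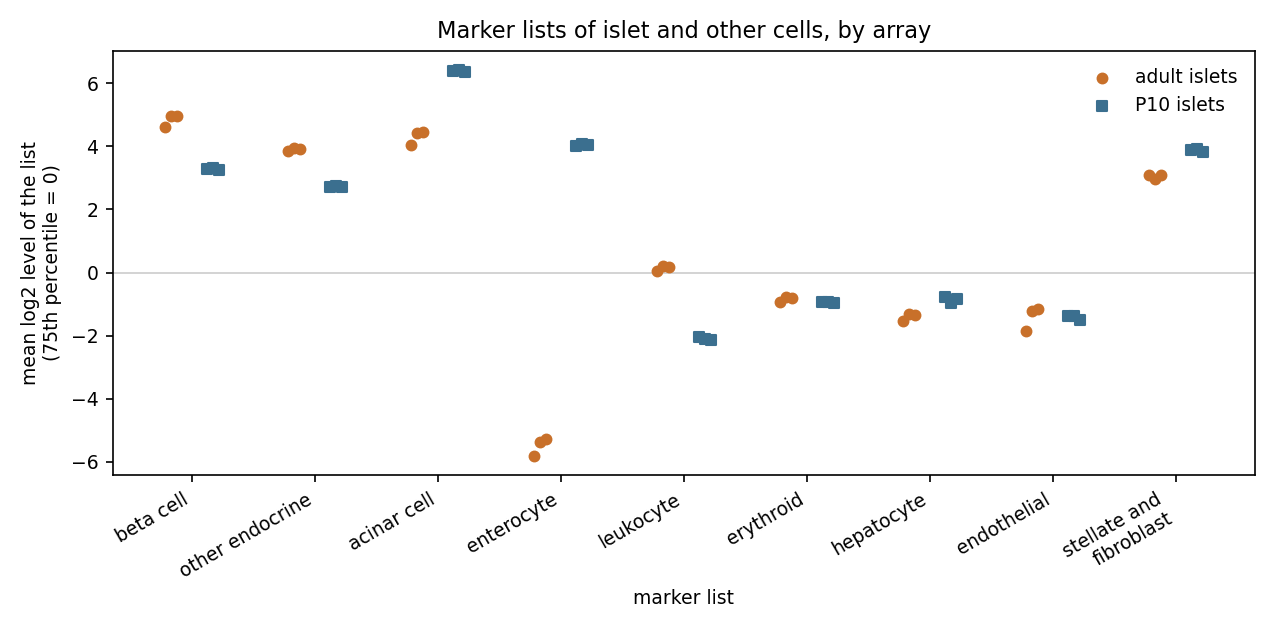
Mean level of each marker list on each array, on the log2 scale with the 75th percentile of the array at 0, with adult islets left of P10 islets and 1 point per array. Enterocyte markers differ most, at -5.81 to -5.26 on adult arrays and 4.01 to 4.07 on P10 arrays, while erythroid and endothelial points lie close together.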

How the data were processed

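The members and lists were chosen with earlier results of these data known. The authors deposited scanner files of 1-channel spot intensity, for which the submitters' processing notes name Agilent Feature Extraction 11.0.1.1. Per the file headers this processed intensity was background-subtracted, with no scaling between arrays. The authors' deposited log2 tables, with no method given in the sources used here, lay within 0.05 of quantile-normalized signals for 98.77% of entries. Probe sequences were not analysed here.

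Outlier-flagged spots and controls were left out, log2 values were averaged over the other spots of each probe, and each array's 75th percentile was subtracted. Each of 42136 spots belonged to 1 of 24684 probes, of which 14294 were named through RefSeq accessions matched to the GRCr8 gene table. A gene's brightest probe was used. Probes well above background (in at least 0.5 of their spots) on all arrays of at least 1 stage were tested with limma (version 3.58.1, under R 4.3.3). Adjusted p-values are Benjamini-Hochberg values over 18362 probes, with a threshold of 0.05. The fit was checked on simulated data with independent noise in each counted sample, so that check does not cover differences between slides.

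Pairs of arrays of 1 stage were compared over probes with log2 signal above 9, printed as repeated spots. Per probe the squared difference, less its trend with signal level, was divided by that expected from spot noise. A pair was averaged where the median of these values was at most 1.1 times the median expected from noise alone. A median does not see a minority of probes that differ. Adult arrays 2 and 3 had a ratio of 0.943, P10 arrays 1 and 2 one of 0.953, and the other pairs 1.64 to 44.1. Same-numbered arrays of the stages deviated from their stage means with correlations of -0.21, 0.08 and -0.24, and differently numbered ones with -0.26 to 0.30. These values show no pairing by number, but with 3 arrays per stage they cannot exclude it.

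Levels on all arrays are given for members called with a change of at least 1 log2 unit and for the brightest of each family. Of other lists up to 3 called genes in each direction, or up to 2 markers, are named. Ins1, Ins2, Gcg, Fth1, Ftl1, Apoh, Apoa4, Msrb2 and Ttr were added after their values were seen. One marker is not reported here. Alternatives were quantile and median scaling, the normexp background correction with an offset of 50 (on median signals), the authors' log2 values, other filters on dim probes, all 6 arrays as separate samples with and without the replicate number as a block, slide as a block, slide 1 alone, the mean of a gene's probes, and leaving out each array. A fit on 6 arrays used only probes measured on all of them. The number of arrays limits the precision.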

Additional observations from a re-analysis of the deposited data

How the results depend on the processing

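Of the 17 called antioxidant genes 13 were not called without P10 array 3, which leaves 1 counted P10 sample, 6 with the normexp background correction and 5 with median scaling. Leaving out each array in turn gave 2 to 10 antioxidant genes higher and 2 to 14 lower in adult islets, with a median change from -0.31 to -0.19. Other redox genes ranged from 7 to 15 higher and 11 to 34 lower, and all probes from 1576 to 5857 higher and 2542 to 7588 lower. With the normexp correction 5 antioxidant genes, 17 other redox genes and 2722 probes were lower and 2126 probes higher. With median scaling 10 antioxidant genes were higher and 5 lower, with a median of 0.027, and all probes split into 5088 higher and 4640 lower. With quantile normalization all probes split into 5219 higher and 5278 lower, and the antioxidant median was -0.070, and with the authors' values it was -0.068. With the slide as a block 17 antioxidant genes and 9057 probes were lower; slide 1 alone gave 16 and 8964. Both rest on 1 adult array that is assumed to vary like the P10 arrays. Quantile normalization on slide 1 alone, chosen after seeing the data, gave a median of -0.14, 19 other redox genes higher and 6536 probes higher. Without the filter on dim probes 8599 probes were lower and 3701 higher. The cause was not tested.

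As nothing showed that the replicate numbers pair samples, the fit with the replicate block is only a check. It called 8 antioxidant genes higher and 12 lower, 13 and 28 other redox genes, and 4713 and 6786 probes.

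Among antioxidant genes the sign turned for 7, none of which passed the test. Gpx7 stood at -0.048 with 6 separate arrays, with and without the replicate block, at -0.018 with quantile normalization and with the authors' values, and between -0.19 and 0.046 when arrays were left out in turn. Gpx6 stood at 0.47 with quantile normalization and with the authors' values, at 0.047 with median scaling, and between -0.71 and 0.47 when arrays were left out. Txn1 stood at 0.021 with quantile normalization and 0.024 with the authors' values. Median scaling also gave Prdx5 0.018, Txn2 0.23, Txnip 0.027 and Gclc 0.23, and Gclc lay between -0.14 and 0.13 when arrays were left out. Txn2 stood at 0.054 with the slide block and on slide 1 alone, and at 0.0029 there with quantile normalization. Ncf4, called otherwise, stood at -0.041 with normexp. Over all settings, the antioxidant genes gave 485 values with the same call and direction, 50 newly called, 30 no longer called and 21 with the other sign.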
